A study of Mus musculus with 12 samples.

Results

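The transcription factor genes Egr1, Egr2, Egr3, Nr4a1, Nr4a2 and Nr4a3, and the genes Nab1 and Nab2 for corepressors of EGR proteins, were followed in cultured mouse dendritic cells given a fungal-type beta-glucan. The 8 genes were taken by symbol from a list of family members, drawn up with earlier results of these data known, and joined to the count table. They are 8 of the 37991 genes in that table, and all 8 were among the 18981 genes abundant enough to be tested. RNA came from C57BL/6 bone-marrow-derived dendritic cells (BMDC), antigen-presenting cells grown from marrow progenitors. One genotype was wild type (WT). The other was labelled Vav1/2/3-/- (KO), a knockout of the Vav signalling adaptors and exchange factors that act below Syk-coupled receptors. Each genotype was either left unstimulated or given curdlan, a particulate beta-glucan that binds the receptor Dectin-1, for 3 hours, which gave 4 groups of 3 libraries. Libraries carry the numbers of the library names, 1, 2 and 4 for WT in both states, 1, 2 and 5 for unstimulated KO, and 2, 4 and 5 for KO with curdlan. The labels do not say whether libraries came from separate mice or cultures, so p-values measure only the spread between these libraries, which may be technical. Neither the age and sex of the mice nor the alleles behind the knockout are stated in the labels.

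EGR proteins are zinc-finger factors that bind GC-rich DNA and are made within minutes of many receptor signals, through ERK and serum response factor (SRF). NR4A proteins are orphan nuclear receptors that bind DNA without a known physiological ligand, and their genes respond to calcium, cyclic AMP and ERK signals through CREB-family and MEF2 factors. NAB proteins bind EGR1, EGR2 and EGR3 and mostly repress their targets, and Nab2 is itself known as an EGR-inducible gene, so that the family carries its own brake. In myeloid cells, EGR factors are known from growth-factor and pattern-recognition signalling, Nr4a1 from the survival of patrolling monocytes, and Nr4a3 from dendritic cell migration.

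Library totals ran from 41421718 to 61217861 counts, and the 8 genes together held 25975 to 167822 counts per library. Each group was run in a sequencing lane of its own (5 to 8), so a lane cannot be told apart from its group. RNA of none of the 3 targeted genes was called lower in libraries labelled KO. Vav1 was at 131 to 179 CPM (counts scaled to a common effective library size) over the WT libraries and at 198 to 330.0 CPM over those labelled KO, and Vav2 at 65.0 to 72.7 and 265 to 325 CPM. Vav3 was called higher in KO without curdlan (31.5 to 40.0 against 21.6 to 28.9 CPM), while with curdlan the groups overlapped at 22.7 to 32.5 CPM in KO and 28.3 to 36.9 CPM in WT (log2 -0.19, SE 0.15, adjusted p = 0.315). A count over a whole gene does not check a deletion that leaves the transcript in place, so "KO" is used below as the label of these libraries. Of 12 dendritic cell markers, 12 were at 1 CPM or more in every group, and macrophage and neutrophil markers were also abundant.

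The promoters of the NR4A genes and of Egr2 are shown because they place the known inputs of these genes beside their measured responses. Promoter entries from RefSeq (GRCm38.p6) matched 6 of the 8 genes, and Egr1 and Egr3 had none. Letters were searched on both strands in the 250 bases before each start. Capitals mark the letters TGACG on either strand, a short element bound by CREB and ATF factors (its complement is printed for the minus strand), and in Egr2 also a CArG box, the element of SRF. The Nr4a1 stretch is chr15:101266596-101266845 on the plus strand, within an intron of its longest GENCODE M21 transcript. The Nr4a2 stretch is chr2:57124004-57124253 on the minus strand, directly before the annotated gene. The Nr4a3 stretch is chr4:48045055-48045152 on the plus strand, the 98 bases of its window that precede the annotated gene. The Egr2 stretch is chr10:67537619-67537868 on the plus strand, before the third of its RefSeq starts and within introns of longer Egr2 transcripts.
Nr4a1: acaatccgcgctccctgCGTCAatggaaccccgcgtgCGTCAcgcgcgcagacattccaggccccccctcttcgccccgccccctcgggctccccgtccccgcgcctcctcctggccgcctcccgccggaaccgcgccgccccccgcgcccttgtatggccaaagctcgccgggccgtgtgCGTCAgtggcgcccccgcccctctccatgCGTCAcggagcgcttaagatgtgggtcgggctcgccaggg
Nr4a2: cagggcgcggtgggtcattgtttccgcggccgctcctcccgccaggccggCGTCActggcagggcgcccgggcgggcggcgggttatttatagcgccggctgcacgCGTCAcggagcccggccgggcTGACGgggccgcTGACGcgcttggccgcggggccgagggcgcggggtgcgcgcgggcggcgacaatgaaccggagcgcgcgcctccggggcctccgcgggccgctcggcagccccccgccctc
Nr4a3: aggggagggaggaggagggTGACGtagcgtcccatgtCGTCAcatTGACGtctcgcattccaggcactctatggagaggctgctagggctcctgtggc
Egr2: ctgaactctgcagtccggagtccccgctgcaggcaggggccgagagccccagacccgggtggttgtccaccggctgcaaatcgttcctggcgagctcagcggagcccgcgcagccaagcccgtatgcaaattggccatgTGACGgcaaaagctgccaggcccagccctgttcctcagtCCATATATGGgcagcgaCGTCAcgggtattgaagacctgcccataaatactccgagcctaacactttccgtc
The windows of Nr4a1, Nr4a2 and Nr4a3 each held 4 TGACG elements, 3 of the 4 being in the printed part for Nr4a3. Among 32536 windows of the same length, 17.9% held at least 1 such element and 0.138% (45 windows) held at least 4. The printed Egr2 window, at start 3 of 5, held 2 TGACG elements and 1 CArG box, the latter found in 1.48% of windows. The windows of starts 4 and 5 overlap it and held the same elements. That of start 2 held a CArG box of other letters and no TGACG, and that of start 1 held neither. The EGR element GCGNGGGCG, which overlaps the SP1 letters GGGCGG, was found 3 times in the Nab1 window, once in those of Nr4a1 and Nr4a2 and not in those of Egr2, Nr4a3 and Nab2, against 4.74% of all windows with at least 1. The Nab2 window (chr10:127666704-127666953) lay inside the annotated minus-strand gene (127660918-127668568), so the bases before that gene were not searched. Most of the Nab1 window (chr1:52500449-52500698) also lay inside its gene (52457294-52500679). Also searched, and in no window of the 6 genes, were the full palindrome TGACGTCA (1.56% of windows), the AP-1 letters TGANTCA (6.73%) and the NR4A element AAAGGTCA (1.35%). A kappa B element (3.92%) was in the Nab1 window, and the NFAT core GGAAA, in those of Nr4a2 and of 4 of the 5 Egr2 starts, was in 55.7% of windows. GGGCGG was in 33% of windows and in at least 1 window of each of the 6 genes. The letters and the stretches were chosen after the sequences and the responses had been seen. A match describes the letters and not a bound site.

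Curdlan raised all 8 genes in WT cells and all 8 in cells labelled KO, and for each gene every curdlan library was above every unstimulated library of its genotype. The rises were from 1.24-fold to 24.4-fold, smallest for Nab1 and largest for Egr1 in KO. In the test over all genes (edgeR quasi-likelihood, Benjamini-Hochberg adjusted p under 0.05), 19.8% of genes were called in WT (11.4% higher) and 28.6% in KO (14.0% higher). Libraries without overlap, higher with curdlan, were found for 21.1% of genes in WT and 18.6% in KO. The median log2 fold change of the 8 genes was 2.33 in WT and 2.86 in KO, against -0.03 and 0.00 over all genes tested.

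**Figure D1:**
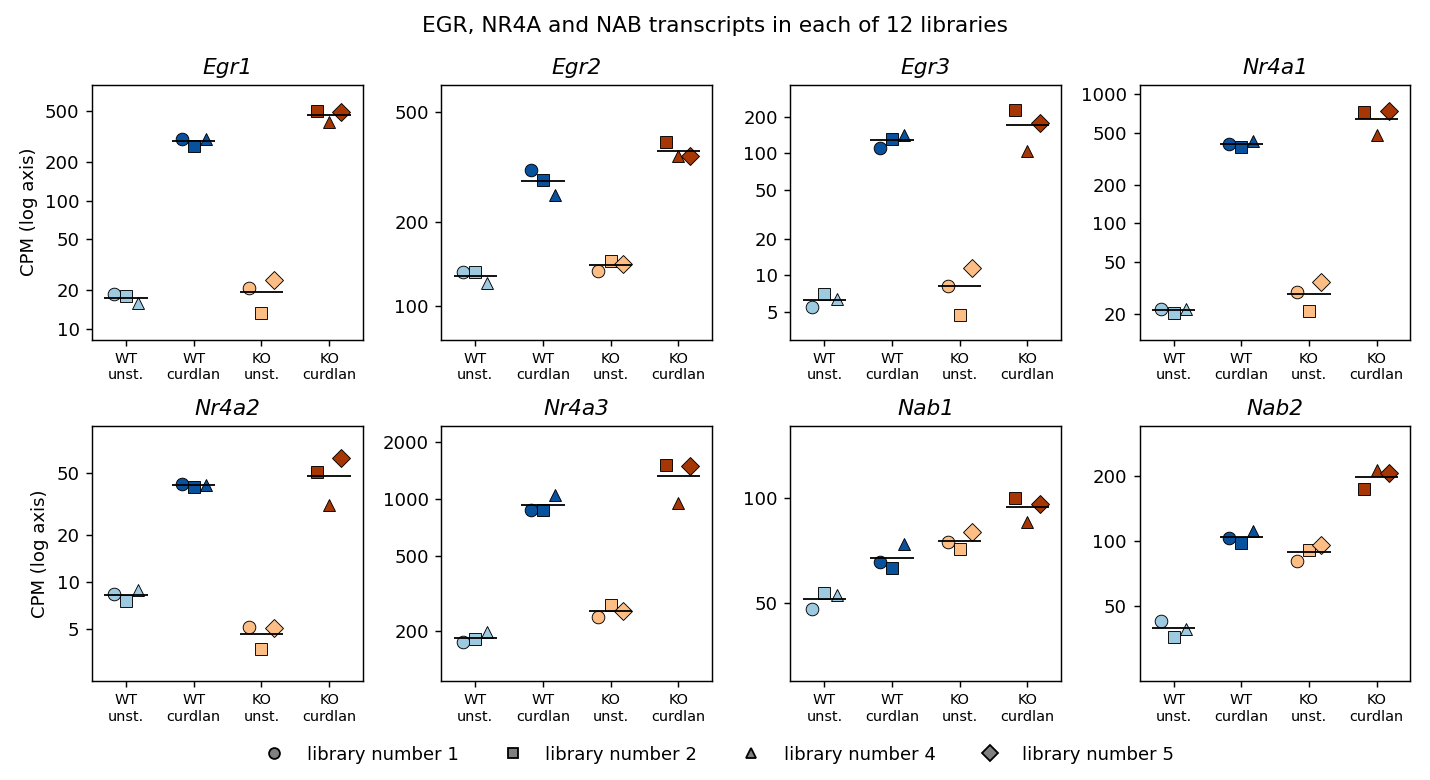
CPM of each gene in each library (log axis, scaled per panel), with the group mean as a bar and the library number as the symbol. Curdlan libraries lie above unstimulated ones in all 8 panels, and KO library 4 with curdlan lies below KO libraries 2 and 5 for Egr1, Egr3, Nr4a1, Nr4a2, Nr4a3 and Nab1.

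Egr1, the founding member of its family, was at 18.6, 17.9 and 16.0 CPM in WT libraries 1, 2 and 4 without curdlan and at 304, 268 and 303 CPM with curdlan. In KO libraries 1, 2 and 5 it was at 20.8, 13.2 and 24.0 CPM, and in KO libraries 2, 4 and 5 with curdlan at 503, 415 and 499 CPM. All 3 KO curdlan libraries lay above all 3 WT curdlan libraries, while the unstimulated groups overlapped. The rise was 16.7-fold in WT (log2 4.06, SE 0.18, adjusted p = 8.58e-08) and 24.4-fold in KO (log2 4.61, SE 0.19, adjusted p = 1.12e-07).

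Egr3, which is often induced alongside Egr1 in lymphocytes, started at the lowest level per length of the 8 genes in WT. It was at 5.48, 6.98 and 6.41 CPM in WT libraries without curdlan and at 111, 131 and 143 CPM with curdlan. KO libraries held it at 8.23, 4.77 and 11.6 CPM without and 228, 104 and 178 CPM with curdlan. The KO libraries were widely spread in both states and enclosed the WT values. The rise was 20.4-fold in WT (log2 4.35, SE 0.33, adjusted p = 3.28e-06) and 20.6-fold in KO (log2 4.36, SE 0.33, adjusted p = 4.12e-06).

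Egr2, known for its roles in T cell tolerance and in macrophages, was already abundant without curdlan and rose least of the 3 EGR genes. It was at 132, 132 and 121 CPM in WT libraries without curdlan and at 307, 283 and 251 CPM with curdlan. Among KO libraries the values were 134, 145 and 142 CPM without and 389.9, 345 and 345 CPM with curdlan. The KO libraries lay above the WT libraries in both states, by a small margin without curdlan. The rise was 2.18-fold in WT (log2 1.13, SE 0.09, adjusted p = 3.55e-06) and 2.56-fold in KO (log2 1.35, SE 0.09, adjusted p = 1.73e-06). Egr4, the remaining gene of the family, was near the limit of detection, with 1, 0 and 2 counts in unstimulated WT libraries and 14, 12 and 13 with curdlan. In KO it had 1, 1 and 0 counts without and 65, 25 and 16 with curdlan. At these low counts it was called higher with curdlan in both genotypes, and higher in KO than in WT with curdlan. Egr4 is counted below among the 29 further immediate-early genes.

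Nr4a1, which encodes Nur77, was with Egr1 and Egr3 among the genes that rose most. It was at 21.7, 20.2 and 21.7 CPM in WT libraries without curdlan and at 412, 391 and 437 CPM with curdlan. In KO, the level was 29.4, 20.9 and 35.5 CPM without and 724, 479 and 737 CPM with curdlan. The WT libraries were close together in both states, and KO libraries 2 without and 4 with curdlan were the lowest of their groups. The rise was 19.5-fold in WT (log2 4.28, SE 0.20, adjusted p = 1.26e-07) and 22.6-fold in KO (log2 4.50, SE 0.21, adjusted p = 1.26e-07).

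Nr4a2, which encodes Nurr1, was the least abundant NR4A gene per length in every group. It was at 8.35, 7.50 and 8.88 CPM in WT libraries without curdlan and at 42.1, 40.1 and 41.8 CPM with curdlan. KO values were 5.13, 3.71 and 5.05 CPM without and 50.3, 31.2 and 61.9 CPM with curdlan. Without curdlan every KO library was below every WT library, whereas with curdlan the KO libraries lay on both sides of the WT libraries. The rise was 5.01-fold in WT (log2 2.33, SE 0.20, adjusted p = 1.09e-05) and 10.3-fold in KO (log2 3.36, SE 0.22, adjusted p = 1.73e-06).

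Nr4a3, which encodes Nor1, held the largest share of NR4A transcripts in every group. It was at 175, 182 and 198 CPM in WT libraries without curdlan and at 874, 867 and 1047 CPM with curdlan. Libraries labelled KO were at 237, 274 and 254 CPM without and 1508, 950.1 and 1486 CPM with curdlan. The unstimulated genotypes did not overlap, while KO library 4 with curdlan fell within the WT curdlan range. The rise was 5.02-fold in WT (log2 2.33, SE 0.16, adjusted p = 1.85e-06) and 5.15-fold in KO (log2 2.36, SE 0.16, adjusted p = 2.00e-06).

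Of the corepressors, Nab2 rose more with curdlan than Nab1. Nab2 was at 42.9, 36.2 and 39.4 CPM in WT libraries without curdlan and at 104, 98.0 and 111 CPM with curdlan. The KO levels were 81.0, 91.2 and 95.8 CPM without and 175, 213 and 206 CPM with curdlan. Unstimulated KO libraries thus stood between the 2 WT states. The rise was 2.63-fold in WT (log2 1.40, SE 0.10, adjusted p = 2.35e-06) and 2.21-fold in KO (log2 1.15, SE 0.10, adjusted p = 1.05e-05). In GENCODE M21, Nab2 shares 1050 exonic bases with the antisense gene Gm16229, 151 with Nemp1 and 40 with Stat6, all on the opposite strand, and the library kit does not mark strand, so reads of these stretches cannot be told apart. Gm16229 had 2 to 9 counts per library, which does not show how many reads fell in the shared stretch. No exon of the other 7 genes was shared with another annotated gene.

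Nab1 was at 48.0, 53.5 and 52.6 CPM in WT libraries without curdlan and at 65.7, 63.2 and 73.6 CPM with curdlan. For KO, they were 75.0, 71.6 and 79.8 CPM without and 100.2, 85.2 and 96.3 CPM with curdlan. The groups rose in the order unstimulated WT, WT with curdlan, unstimulated KO and KO with curdlan, and the only overlap was of WT library 4 with curdlan, at 73.6 CPM, with unstimulated KO. The rise was 1.31-fold in WT (log2 0.39, SE 0.08, adjusted p = 0.00560) and 1.24-fold in KO (log2 0.31, SE 0.08, adjusted p = 0.0143). The call in KO was lost without unstimulated KO library 1 (adjusted p = 0.0508) or 2 (0.0527), and with scaling by library size alone, where the log2 fold change was 0.12 (adjusted p = 0.283).

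**Figure D2:**
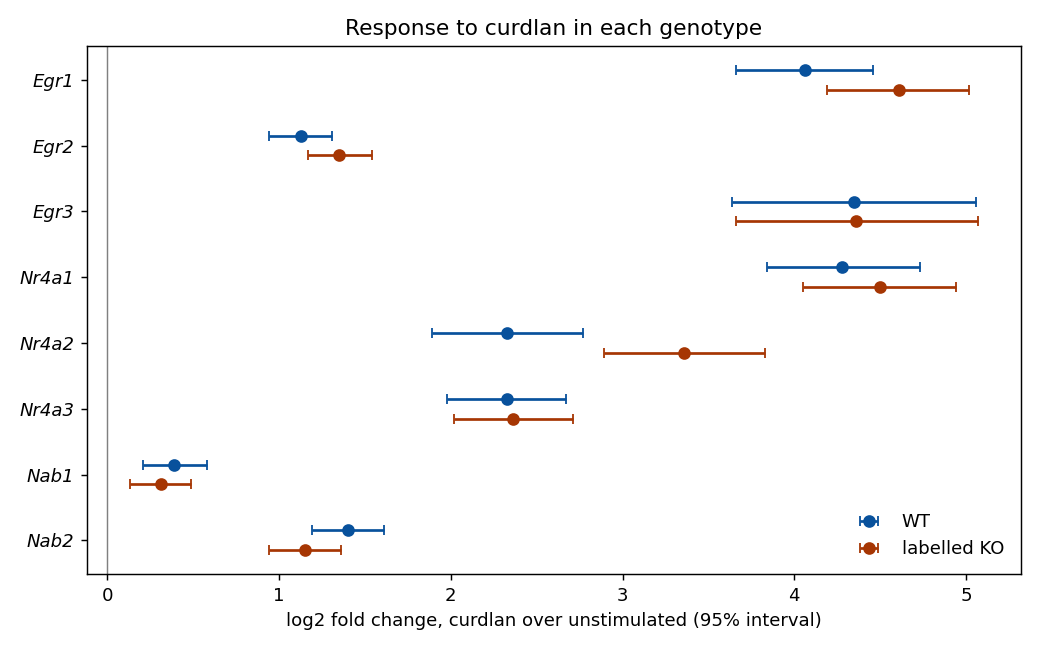
Log2 fold change of each gene with curdlan over unstimulated cells in WT and in libraries labelled KO, with 95% intervals from the edgeR fit of 12 libraries. Egr1, Egr3 and Nr4a1 lie above 4, Nr4a2 and Nr4a3 above 2, and Nab1 below 0.5 in both genotypes.

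The size of the rise did not follow gene family. Egr1, Egr3 and Nr4a1 rose 16.7-fold to 24.4-fold, Nr4a2 and Nr4a3 5.01-fold to 10.3-fold, and Egr2, Nab1 and Nab2 1.24-fold to 2.63-fold. Over the 12 libraries, the root-mean-square difference between gene-centred log2 CPM values was 0.15 for Egr1 and Nr4a1, 0.22 for Egr3 and Nr4a1, and 0.28 for Egr1 and Egr3. Egr1 and Egr2, by contrast, were 1.58 apart, and Nr4a1 and Nr4a3 were 1.05 apart. These distances describe 12 libraries that share the same 2 conditions and lanes.

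Whether curdlan acted differently in the 2 genotypes was asked by the difference between the responses, KO minus WT. None of the 8 genes passed in the fit of group means, where 5.21% of all genes did. Nr4a2 came closest, with a response larger by 1.04 on the log2 scale (SE 0.28, 95% interval 0.42 to 1.65, adjusted p = 0.0548). Its value was past the threshold in several other settings, among them DESeq2 (log2 1.03, adjusted p = 0.00649) and the fit without KO curdlan library 4 (log2 1.26, adjusted p = 0.00814), while over the fits that left out a library the adjusted p reached 0.126. For Egr1 the difference was 0.55 (SE 0.23, interval 0.04 to 1.06, adjusted p = 0.165). The intervals of the other 6 genes included 0. They reached from -0.90 to 0.92 for Egr3, from -0.34 to 0.77 for Nr4a1, from -0.43 to 0.50 for Nr4a3, from -0.03 to 0.49 for Egr2, from -0.34 to 0.18 for Nab1 and from -0.55 to 0.04 for Nab2. Differences of response of up to those bounds are therefore not excluded by these libraries, and for Egr3 the bound is close to 2-fold in either direction.

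Libraries of the same number in the 2 states deviated together from their group means over all genes, though weakly for WT number 4 (r = 0.13). KO library 2 without curdlan did so about as much with KO curdlan library 4 (r = 0.25) as with 2 (0.29). The sample titles number the KO libraries otherwise and would pair them in another way. By the library names, the responses were also taken within a number, which leaves WT pairs 1, 2 and 4 and KO pairs 2 and 5. KO library 1 without and 4 with curdlan have no partner and drop out. For Nr4a2 the log2 changes were 2.33, 2.41 and 2.23 in the WT pairs and 3.75 and 3.60 in the KO pairs. For Egr1 they were 4.03, 3.91 and 4.24 in WT and 5.24 and 4.38 in KO. For Nab2 they were 1.27, 1.43 and 1.49 in WT and 0.94 and 1.10 in KO. The KO pairs lay wholly above the WT pairs for 5 of the 8 genes (Egr1, Egr2, Nr4a1, Nr4a2 and Nr4a3) and wholly below for 1 (Nab2), against 23.9% and 22.8% of all genes. The margin was small for Egr2, where the lowest KO pair was at 1.28 and the highest WT pair at 1.22, and for Nr4a1 (4.37 and 4.32). It was also small for Nr4a3, where the KO pairs were at 2.46 and 2.55, less than 0.1 above the highest WT pair at the lower end. With the replicate number as a block within genotype, in edgeR, the difference passed for Nr4a2 (log2 1.35, SE 0.11, adjusted p = 3.06e-05), for Egr1 (log2 0.73, SE 0.19, adjusted p = 0.0246) and for Nab2 (log2 -0.38, SE 0.10, adjusted p = 0.0212). In that fit too, the KO response rests on pairs 2 and 5. With the number as a block across genotypes, Nr4a2 passed (log2 1.09, adjusted p = 0.0195), whereas Egr1 (adjusted p = 0.0624) and Nab2 (adjusted p = 0.141) did not. That block gives WT and KO libraries of equal number a shared effect, though the labels do not link them. Over all genes, 2671 differences passed with the block within genotype and 2002 with the block across genotypes, against 989 without a block. Egr3 showed how far KO pairs could differ, with log2 changes of 5.57 in pair 2 and 3.94 in pair 5 around WT values of 4.23 to 4.47.

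**Figure D3:**
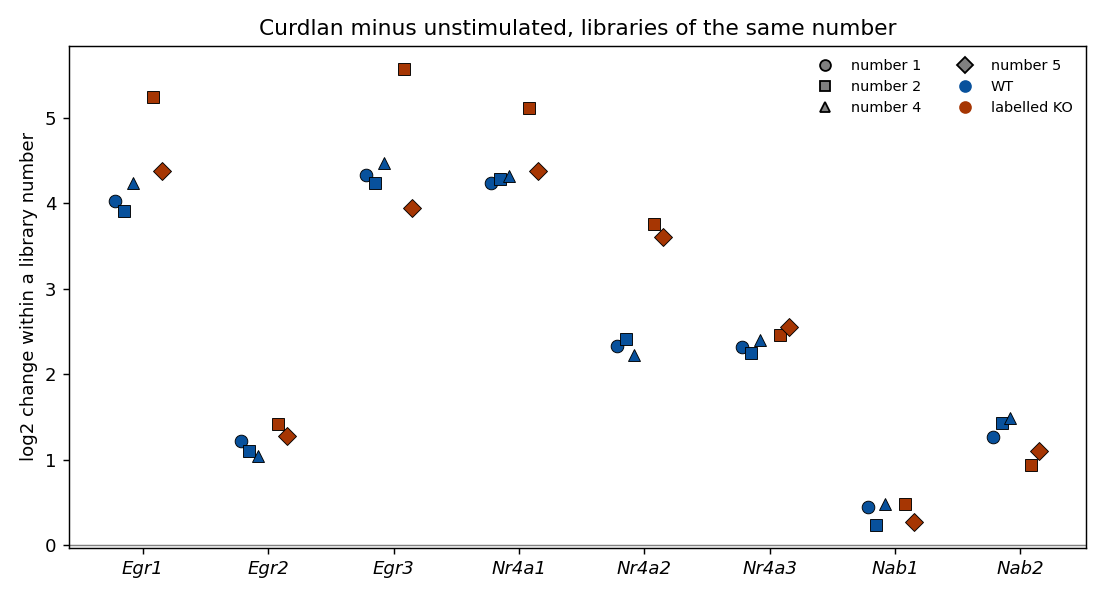
Log2 change with curdlan between libraries of the same number, in 3 WT pairs and 2 KO pairs for each gene. For Nr4a2 the KO pairs (3.60 and 3.75) lie above the WT pairs (2.23 to 2.41), and for Nab2 they lie below.

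Without curdlan, libraries labelled KO held more Nab2, Nab1 and Nr4a3 RNA and less Nr4a2 RNA than WT libraries. Nab2 was higher by 2.26-fold (log2 1.18, SE 0.10, adjusted p = 1.67e-06) and Nab1 by 1.47-fold (log2 0.56, SE 0.08, adjusted p = 0.000177). Nr4a3 was higher by 1.38-fold (log2 0.46, SE 0.15, adjusted p = 0.0251). Nr4a2 was at 0.564 of its WT level (log2 -0.83, SE 0.21, adjusted p = 0.00647). Thus 3 of the 8 genes were called higher and 1 lower, in a comparison where 44.4% of all genes were called, 21.1% higher and 23.3% lower, so that the count of 4 is close to the background. The libraries did not overlap for Nab2, Nab1, Nr4a3 and Egr2 on the higher side (26.3% of all genes) and Nr4a2 on the lower side (29.8%).

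The Nr4a3 call without curdlan was the least stable of these. It was lost without WT library 1 or 2 or KO library 2 or 5 (adjusted p up to 0.0805), with the replicate number as a block across genotypes (log2 0.40, adjusted p = 0.0593) and with scaling by library size alone (log2 0.28). The Nr4a1 value was 0.43 on the log2 scale (SE 0.18, adjusted p = 0.0723) and passed with DESeq2 (log2 0.44, adjusted p = 0.0480). Without KO library 2, the lowest KO library for Egr1, Egr3, Nr4a1 and Nr4a2, the values for Nr4a1 (log2 0.61, adjusted p = 0.0101) and Egr1 (log2 0.35, adjusted p = 0.0261) passed. With all libraries, Egr1 was at 0.15 (SE 0.17, adjusted p = 0.519), Egr2 at 0.13 (SE 0.09, adjusted p = 0.235) and Egr3 at 0.39 (SE 0.31, adjusted p = 0.329), and under scaling by library size alone Egr1 was at -0.04 and Egr2 at -0.05.

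With curdlan, 6 of the 8 genes were called higher in KO libraries, where 24.7% of all genes were called higher and 51.4% were called in either direction. Nab2 was higher by 1.90-fold (log2 0.93, SE 0.10, adjusted p = 1.00e-05) and Egr1 by 1.62-fold (log2 0.70, SE 0.16, adjusted p = 0.00346). Nr4a1 was higher by 1.57-fold (log2 0.65, SE 0.18, adjusted p = 0.00901). Nab1 was higher by 1.39-fold (log2 0.48, SE 0.08, adjusted p = 0.000487) and Egr2 by 1.28-fold (log2 0.36, SE 0.08, adjusted p = 0.00368). Nr4a3 was higher by 1.41-fold (log2 0.50, SE 0.15, adjusted p = 0.0148). Libraries did not overlap for Egr1, Egr2, Nr4a1, Nab1 and Nab2 (5 of 8, against 27.4% of all genes), and those of Nr4a3 did. Egr3 was at 0.41 (SE 0.28, interval -0.20 to 1.01, adjusted p = 0.244). Nr4a2 was at 0.21 (SE 0.19, interval -0.20 to 0.62, adjusted p = 0.375), at -0.04 under scaling by library size alone, and past the threshold without KO curdlan library 4 (log2 0.43, adjusted p = 0.0148). For each gene, the change of the genotype difference between the states equals the difference of responses given above.

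Scaling by library size alone left 3 of these 6 calls, those of Egr1, Nab1 and Nab2. Nr4a1 was then at 0.40 (adjusted p = 0.0707), Nr4a3 at 0.26 (adjusted p = 0.170) and Egr2 at 0.11 (adjusted p = 0.297), while the median of all genes moved to -0.24. The Nr4a3 call was also lost without WT curdlan library 1 or 2 or KO curdlan library 2 or 5 (adjusted p up to 0.0598), in a fit of these 2 groups alone (adjusted p = 0.0525) and with the replicate number as a block across genotypes (log2 0.41, adjusted p = 0.0514).

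**Figure D4:**
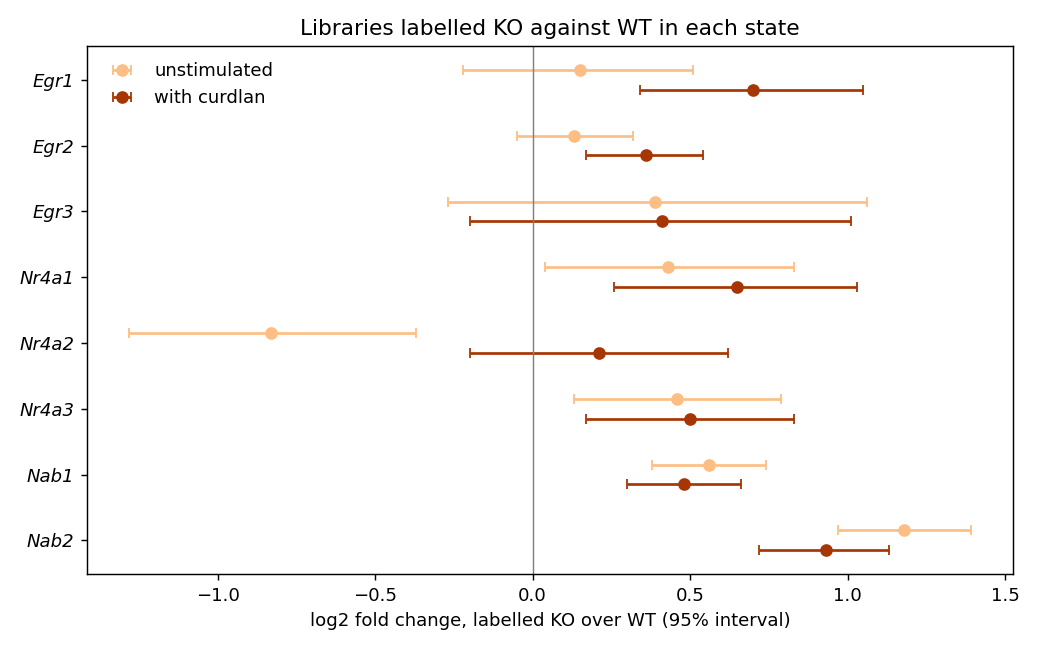
Log2 fold change of each gene in libraries labelled KO over WT, without and with curdlan, with 95% intervals from the edgeR fit. The intervals of Nab1, Nab2, Nr4a1 and Nr4a3 lie above 0 in both states, though Nr4a1 did not pass without curdlan after adjustment. That of Nr4a2 lies below 0 without curdlan and spans 0 with it, and that of Egr1 spans 0 without curdlan and lies above 0 with it.

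Cell type markers moved with the genotype label as well. The summed level of 6 B cell markers was 34.7 to 43.6 CPM in WT libraries and 1.33 to 1.75 CPM in KO libraries, with 6 of 6 and 0 of 6 at 1 CPM or more. The summed level of 7 mast cell and basophil markers was 49.1 to 63.2 CPM in WT and 205 to 353 CPM in KO. Neutrophil markers summed to 4180.4 to 6135 and 6345 to 10916 CPM, macrophage markers to 14664 to 16112 and 17242 to 22110.1 CPM, and dendritic cell markers to 9797 to 10387 and 16635 to 23927 CPM. Genes of antigen presentation by MHC class II carried most of the dendritic cell sum, Cd74 alone being at 6024 CPM in unstimulated WT and 10963 CPM in unstimulated KO. In each state 8 of these 12 markers were called higher in KO and 2 lower, the latter being Itgax (1488 and 788 CPM) and Batf3 (17.1 and 9.62 CPM) without curdlan, and Itgax and Zbtb46 with curdlan. Of all genes, 21.1% were called higher and 23.3% lower without curdlan, and 24.7% and 26.8% with it. The sum of 12 T and NK cell markers was 7.29 to 8.73 CPM in WT and 9.54 to 16.3 CPM in KO, and 2 of them had a mean of at least 1 CPM in each group, though not the same 2 throughout. Cd28 was higher in KO (1.82 CPM in unstimulated WT and 10.8 CPM in unstimulated KO), whereas Lck was lower (3.25 and 0.466 CPM). In bulk RNA, fewer cells of a type and less RNA per cell cannot be told apart, and the part of cell makeup in the genotype differences of the 8 genes was not tested. With curdlan, 5 dendritic cell markers rose and 1 fell in WT and 4 rose and 1 fell in KO, with Cd80, Cd83 and Cd86, which mark activation, among those that rose in both. Macrophage markers gave 2 rises in WT, and 3 rises and 1 fall in KO. In KO, 2 neutrophil markers fell and 2 T and NK cell markers rose, with 0 calls for both lists in WT. Among all genes, 11.4% rose and 8.40% fell past the threshold in WT, and 14.0% and 14.6% in KO. Curdlan changed none of the B cell or the mast cell and basophil markers past the threshold in either genotype.

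Levels were compared between genes as CPM per kilobase of merged exon length. For Nab2 that length includes the bases shared with genes on the opposite strand, whose reads cannot be told apart. How far this moves the level of Nab2 beside other genes was not tested. In unstimulated WT cells the order was Egr2 (37.8), Nr4a3 (30.9), Nab2 (13.4), Nab1 (12.5), Nr4a1 (6.04), Egr1 (3.90), Nr4a2 (2.03) and Egr3 (1.43), and only Nab2 and Nab1 had overlapping libraries among neighbours. With curdlan the WT order was Nr4a3 (155), Nr4a1 (118), Egr2 (82.5), Egr1 (65.1), Nab2 (35.4), Egr3 (29.1), Nab1 (16.5) and Nr4a2 (10.2), with no overlap between neighbours. Unstimulated KO cells had Nr4a3 (42.6) and Egr2 (41.4) at the top with overlapping libraries, then Nab2 (30.4), Nab1 (18.4), Nr4a1 (8.15), Egr1 (4.31), and, again overlapping, Egr3 (1.86) and Nr4a2 (1.14). With curdlan, KO cells had Nr4a3 (219.6), Nr4a1 (184), Egr2 (106), Egr1 (105), Nab2 (67.2), Egr3 (38.6), Nab1 (22.9) and Nr4a2 (11.8). Libraries overlapped there between Nr4a3 and Nr4a1, between Egr2 and Egr1, and between Egr3 and Nab1. Egr3 was thus last in WT without curdlan and sixth with it, where Nr4a2 was last.

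With curdlan, the shares of Egr2, Nr4a3 and Nab1 in their families were lower and those of Egr1, Egr3, Nr4a1 and Nab2 were higher, in both genotypes. Egr2 made up 87.6 ± 0.17% (SD, n = 3) of summed EGR transcripts per kilobase in unstimulated WT libraries and 46.6 ± 3.7% with curdlan, against 87.1 ± 3.8% and 42.6 ± 3.5% in KO. The share of Egr1 went from 9.05 ± 0.29% to 36.8 ± 2.2% in WT and from 9.03 ± 2.4% to 42.3 ± 1.9% in KO. That of Egr3 went from 3.32 ± 0.44% to 16.5 ± 2.5% in WT and from 3.88 ± 1.5% to 15.1 ± 3.9% in KO. Nr4a3 made up 79.3 ± 1.1% of NR4A transcripts in unstimulated WT libraries and 54.7 ± 1.6% with curdlan, against 82.1 ± 4.3% and 52.8 ± 0.65% in KO. Nr4a2 never exceeded 5.48% of the NR4A sum in any library, and its share was lower with curdlan in WT (3.61 ± 0.24% after 5.20 ± 0.32%) and overlapped between the states in KO (2.80 ± 0.37% after 2.20 ± 0.43%). Nab2 made up 51.7 ± 3.5% of NAB transcripts in unstimulated WT libraries, 68.3 ± 0.50% in WT with curdlan, 62.2 ± 2.0% in unstimulated KO and 74.5 ± 3.5% in KO with curdlan. These shares follow from the gene levels above, with the limit given there for Nab2, and were given no test of their own.

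Summed EGR transcripts per kilobase stood at 1.66 ± 0.11 times the summed NAB transcripts in unstimulated WT libraries and at 3.42 ± 0.26 times with curdlan (SD, n = 3). In libraries labelled KO the ratio was 0.976 ± 0.025 without and 2.79 ± 0.50 with curdlan. Unstimulated KO libraries (0.957 to 1.00) lay below unstimulated WT libraries (1.55 to 1.75), while with curdlan KO libraries (2.33 to 3.33) overlapped WT libraries (3.12 to 3.58). The ratio is one of RNA and says nothing of protein, and its NAB sum carries the limit given for the length of Nab2.

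**Figure D5:**
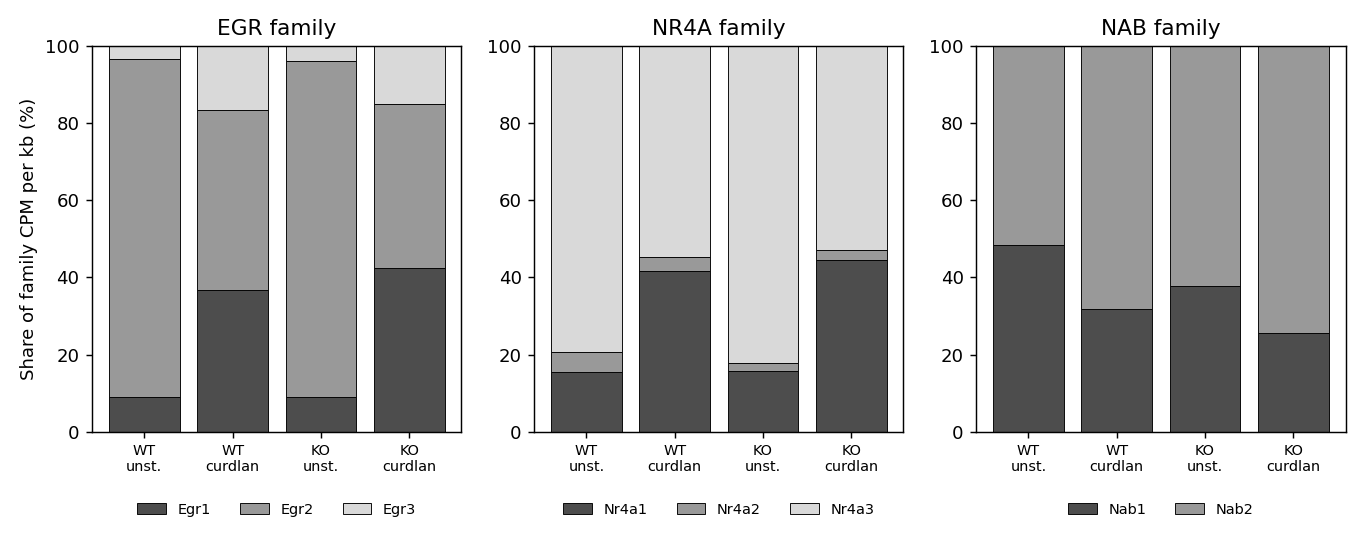
Mean share of each gene in the summed CPM per kilobase of its family, in percent, for the 4 groups of 3 libraries. Egr2 falls from 87.6% to 46.6% of EGR transcripts in WT with curdlan and Nr4a3 from 79.3% to 54.7% of NR4A transcripts, while Nab2 gains on Nab1.

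Among 9761 genes with a mean log2 CPM of 2 or more, those with profiles most like each of the 8 genes were found by the same root-mean-square difference over the 12 libraries. The nearest 3 for Egr1, Egr3 and Nr4a1 were the same genes, Hbegf and Areg, which encode ligands of the EGF receptor, and Rcan1, which encodes a calcineurin inhibitor. Hbegf was 0.41, 0.47 and 0.44 from Egr1, Egr3 and Nr4a1, against medians of 2.23 to 2.25 over the candidates. Hbegf stood at 5.34 CPM in unstimulated WT, 60.7 in WT with curdlan, 5.87 in unstimulated KO and 95.9 in KO with curdlan. Nr4a2 was nearest to Rgs16 (0.30) and Rgs1 (0.36), which encode regulators of G-protein signalling, and to the phosphatase gene Dusp5 (0.43). Rgs1 shared the low unstimulated KO level, at 96.6, 331, 53.1 and 332 CPM in the same 4 groups.

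Nr4a3 was nearest to Dusp1 (0.23) and Dusp5 (0.23), which encode MAP kinase phosphatases, and to the cytokine gene Osm (0.24). Egr2 was nearest to Ifrd1 (0.16), Tnip3 (0.18) and Pik3r1 (0.18). Nab2 was nearest to Slfn2 (0.15), to Maff (0.15), which encodes a small MAF factor, and to Sertad1 (0.16). Nab1 was nearest to Sik3 (0.06), Tnfrsf1a (0.07) and Tpd52 (0.07), within a narrow overall range of change (candidate median 0.41). Likeness here covers 4 groups of 3 libraries and carries no test.

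Of 29 further immediate-early genes, 21 rose and 4 fell with curdlan in WT, and 23 rose and 2 fell in KO, with list medians of 1.20 and 1.10 on the log2 scale. Over all genes, 11.4% were called higher and 8.40% lower in WT, and 14.0% and 14.6% in KO. Cyr61 rose by 5.09 in WT (SE 0.30) and 3.65 in KO (SE 0.28), and the kinase gene Plk3 by 2.66 (SE 0.14) and 3.20 (SE 0.15). The AP-1 genes moved less than Egr1, with Fos up by 1.15 in WT and 1.53 in KO and Fosb by 1.90 and 1.88, while Jun did not pass (0.42 and 0.17). Fosl1 went from 1.18 to 5.74 CPM in WT and from 1.47 to 2.71 CPM in KO. Junb went from 437 to 934 and from 695 to 1211 CPM, and Fosl2 from 185 to 347 and from 200.0 to 366 CPM. In the difference of responses, 1 of the 29 passed as higher in KO and 3 as lower (5 and 4 with the replicate block within genotype, and 0 and 0 without WT unstimulated library 1). In the main fit 5.21% of all genes passed in either direction, and with that block 2671 genes did. KO libraries were higher than WT for 18 of the 29 genes and lower for 2 without curdlan, where 21.1% and 23.3% of all genes were called, and higher for 19 and lower for 2 with curdlan, where 24.7% and 26.8% were. With scaling by library size alone these counts were 14 and 5 without curdlan and 14 and 4 with it.

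The known upstream routes changed less at the RNA level. Among all genes, 11.4% were called higher and 8.40% lower with curdlan in WT, and 14.0% and 14.6% in KO. Of 24 genes for ERK, SRF and CREB signalling, 6 rose and 3 fell in WT and 5 rose and 6 fell in KO, with medians of 0.01 and -0.03. The balance turned in WT with scaling by library size alone, where 3 rose and 8 fell (4 and 12 in KO), and it was even without WT unstimulated library 1, at 3 and 3, and with upper-quartile scaling, at 4 and 4. With library size alone, 1534 of all genes tested rose and 4589 fell in WT, and 1326 and 6073 in KO. Srf itself rose by 0.74 in WT (SE 0.09) and 0.69 in KO (SE 0.09), and the MEF2-family gene Mef2a by 0.71 (SE 0.11) and 0.82 (SE 0.11). Of 19 calcineurin and NFAT genes, 4 rose and 2 fell in WT and 4 rose and 7 fell in KO (3 and 5, and 4 and 13, with library size alone). Rcan1 rose by 2.88 in WT (SE 0.23) and 4.06 in KO (SE 0.24), and Nfatc1 by 0.97 (SE 0.16) and 1.33 (SE 0.16). Of 13 subunits of the NuRD complex, through which NAB proteins repress, 1 rose and 3 fell in WT and 2 rose and 3 fell in KO (0 and 6, and 0 and 5, with library size alone). Of 9 tested NR4A partners and corepressors, 1 rose and 2 fell in WT and 0 rose and 2 fell in KO, where 5 fell with library size alone. Rxrb, which encodes a heterodimer partner of Nur77 and Nurr1, fell in WT (log2 -0.36, SE 0.06) and in KO (log2 -0.44, SE 0.06).

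Of 24 tested genes listed as EGR targets, 12 rose and 2 fell with curdlan in WT and 10 rose and none fell in KO, with medians of 0.53 and 0.29, and 8 rose and 2 fell in KO with library size alone. The shares of all genes called in the main fit were 11.4% higher and 8.40% lower in WT, and 14.0% and 14.6% in KO. F3, which encodes tissue factor, rose by 4.36 in WT (SE 0.35) and 3.77 in KO (SE 0.34), and Tnf by 4.24 (SE 0.19) and 2.09 (SE 0.18). In the difference of responses 0 of the 24 passed as higher in KO and 4 as lower, where 5.21% of all genes passed in either direction. With the replicate block within genotype the counts were 5 and 6, where 2671 of 18981 genes passed. Among the 4 of the main fit were Tnf (log2 -2.16, SE 0.24, adjusted p = 0.00195) and Socs3 (log2 -0.95, SE 0.17, adjusted p = 0.0109). Tnf stood at 158 CPM in unstimulated WT libraries and 942 in unstimulated KO libraries, and at 2996 and 3998 CPM with curdlan. Of 6 tested genes linked to NR4A factors in T cells and dendritic cells, 3 rose in WT and 4 in KO, and none fell. Pdcd1, which encodes the receptor PD-1, rose by 1.16 in WT (SE 0.17) and 3.62 in KO (SE 0.24), a difference of 2.46 (SE 0.30, adjusted p = 0.00272), at low levels of 0.951, 2.13, 0.136 and 1.71 CPM in unstimulated WT, WT with curdlan, unstimulated KO and KO with curdlan. Ccr7, a migration receptor of dendritic cells, was lower in KO without (log2 -0.77, SE 0.13) and with curdlan (log2 -1.35, SE 0.13).

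The authors' deposited table of KO against WT with curdlan gives log2 fold changes of 0.68 for Egr1, 0.62 for Nr4a1, 0.91 for Nab2 and 0.19 for Nr4a2. The authors' deposited table named an interaction gives 1.19 for Nab2, 0.57 for Nab1, 0.47 for Nr4a3 and -0.82 for Nr4a2. Over all genes, the values of that table differed by a median of 0.01 from the comparison of KO and WT without curdlan computed here, and by 0.47 from the difference of curdlan responses. Read as an interaction, that table would thus give Nab2 a response gain of 1.19, where the counts gave a difference of responses of -0.25 (SE 0.14, interval -0.55 to 0.04).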

How the data were processed

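Groups follow the labels. The authors deposited whole-number read counts per gene and library, made with TopHat2 and featureCounts 1.4.6 per the submitters' processing notes. Their build, annotation and strand setting were not given in the sources used here, and the kit does not mark strand. The authors also deposited log2 fold changes with adjusted p-values from DESeq2 1.8.2, which are quoted by name. In total, 24 columns of per-library values were not used. In the authors' comparison table, WT curdlan columns carry other library numbers than identical columns of the count table, whose numbers are used here.

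Counts were scaled by TMM and tested with edgeR 4.0.16 (R 4.3.3; filterByExpr; quasi-likelihood F-test, two-sided) in 1 fit of 12 libraries with 4 group means, with Benjamini-Hochberg adjustment over 18981 genes. CPM uses effective library sizes. Intervals are 95% intervals on the fit's degrees of freedom and cover spread between libraries. The fit was tested on simulated data. Exon lengths, coordinates and overlaps are from GENCODE M21 (GRCm38), matched by gene identifier. Genes of a list are named by size, up to 4 per list and comparison among those called, and for likeness the nearest 3 genes that are not among the 8, whose mean log2 CPM was 2 or more; others, such as Fos, Fosb and Jun, were named after their values were seen. All 8 genes and all lists were chosen with earlier results of these data known.

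Replicate pairs and blocks follow the library numbers. Same-number libraries of the 2 states correlated in their deviations from the group means (r = 0.39, 0.24 and 0.13 for WT numbers 1, 2 and 4, and 0.29 and 0.56 for KO numbers 2 and 5). Between different numbers r was -0.29 to 0.08 in WT and -0.47 to 0.25 in KO, where number 2 without curdlan reached 0.25 with number 4 as against 0.29 with number 2. The labels do not state a pairing. Alternatives were DESeq2 1.42.0, other scalings and filters, the 2 groups alone, replicate blocks and each library left out.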

Additional observations from a re-analysis of the deposited data

Results flagged for a closer look

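With the replicate number as a block within genotype, the curdlan response differed between the genotypes for Egr1 (KO minus WT, log2 0.73), Nr4a2 (1.35) and Nab2 (-0.38), each by the test of the difference itself. The KO response there rests on pairs 2 and 5, so KO library 1 without and 4 with curdlan do not enter it. Pairs follow the library names, and the labels state no pairing. Of the KO curdlan libraries, library 4 was the lowest for Nr4a2 and Egr1 and the highest for Nab2. Without a block, leaving it out gave 1.26 for Nr4a2. In the edgeR fit of group means of all libraries without a block, the values of Egr1, Nr4a2 and Nab2 were 0.55, 1.04 and -0.25 and none of the 3 passed. Nr4a2 did pass without a block in DESeq2 (adjusted p = 0.00649), with upper-quartile scaling (0.0478), with no filter (0.0375) and without KO curdlan library 2 (0.0487) or 4 (0.00814).

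In the fit of group means, 15 of 124 tested genes of the pathway lists (12.1%, against 5.21% of all genes) also differed in their curdlan response between the genotypes. The difference, KO minus WT, was positive for Pdcd1 (log2 2.46), the calcineurin inhibitor gene Rcan1 (1.18), the Kruppel-like factor gene Klf4 (1.02), the CREB-family gene Crem (0.98), the SRF partner gene Elk4 (0.82) and the NuRD subunit gene Mbd2 (0.38). Its sign does not say which genotype moved more. Elk4 went from 38.4 to 29.9 CPM in WT and from 30.1 to 41.6 CPM in KO. Klf4 fell from 57.8 to 33.8 CPM in WT and stood at 31.7 and 37.5 CPM in KO. The difference was negative for Tnf (-2.16), Fosl1 (-1.40), Icam1 (-1.13), Socs3 (-0.95), Rps6ka5 (-0.70), Mkl1 (-0.58), Cdkn1a (-0.58), Maff (-0.51) and Plk2 (-0.45). Mkl1 stood at 71.2 and 73.8 CPM in WT and went from 53.7 to 37.1 CPM in KO. Rps6ka5 went from 14.0 to 16.9 CPM in WT and from 17.3 to 12.8 CPM in KO. Icam1 and Socs3 were already higher in unstimulated KO libraries, at 1303 and 500.2 CPM against 327 and 127 CPM in WT. Over 20 other settings, the calls of Tnf, Socs3 and Rps6ka5 held in all, and that of Pdcd1 in the 19 that gave it a value (DESeq2 gave none). The other 11 were lost in at least 1 setting, mostly with a library left out. Plk2 was lost in 13 (adjusted p up to 0.109), Cdkn1a in 11 (0.124), Mbd2 in 11 (0.0945), Rcan1 in 9 (0.116), Mkl1 in 7 (0.0801), Icam1 in 7 (0.0791), Fosl1 in 6 (0.0708), Maff in 5 (0.0613), Crem in 3 (0.0600), Elk4 in 2 (0.0551) and Klf4 in 1 (0.0521).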

How the results depend on the processing

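In WT, all 8 genes kept their direction and their call with curdlan in every setting and with each library left out. In KO they kept their direction, and 7 to 8 were called with a library left out. The number of genes called in WT was 6123 with library size alone and 7276 with the replicate block within genotype, and 2170 to 4216 with a library left out, against 3759. In KO it was 3142 in a fit of the 2 groups alone and 3490 to 6074 with a library left out, against 5425. For the difference of responses it was 2211 with DESeq2, 2002 with the replicate block across genotypes, 2671 with the block within genotype and 366 to 2837 with a library left out, against 989. Of the 8 genes, the difference was called for 1 (Nr4a2) with upper-quartile scaling, 1 with DESeq2, 1 with no filter, 1 with the replicate block across genotypes and 3 with the block within genotype, and for 0 to 1 with a library left out. The block changed no call of the 8 genes other than those given beside the results. In KO against WT with curdlan, 3 of the 8 were called with library size alone. The cause of these shifts was not tested.

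Values near 0 changed sign. With library size alone, the difference of responses was -0.05 for Egr3 and -0.03 for Nr4a3, the unstimulated genotype difference was -0.04 for Egr1 and -0.05 for Egr2, and that with curdlan was -0.04 for Nr4a2; the cause was not tested. With a library left out, they ranged from -0.27 to 0.35 (Egr3) and from -0.10 to 0.22 (Nr4a3) for the response difference, from -0.04 to 0.35 for Egr1 without curdlan, and from -0.02 to 0.43 for Nr4a2 with curdlan. Library size alone moved the median of all genes to -0.17 and -0.20 for curdlan in WT and KO and to -0.19 and -0.24 for the genotype comparisons without and with curdlan. The share of calls that were higher was then 25.1%, 17.9%, 26.4% and 23.7%, against 57.6%, 49.0%, 47.5% and 48.0%, and 15.7% against 30.8% for the difference of responses. With upper-quartile scaling it was 46.3% in WT and 42.0% for the difference. Each of the 8 genes had at least 154 counts per library, and how far depth or the 3 libraries per group limited the precision was not tested.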
